A study of Homo sapiens with 5 samples.

Results

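The core of the B compartment of RMG1, a human cell line from a clear cell carcinoma of the ovary, was followed in 5 in situ Hi-C libraries. Hi-C ligates stretches of DNA that touch inside fixed nuclei and counts the joined ends by sequencing, here between bins of 1 Mb (hg19). Core B bins were those in the lowest 20% of each autosome by the first eigenvector of the control library's contact pattern within that chromosome, signed so that high values go with a high ratio of contacts between chromosomes (trans) to contacts within the chromosome (cis). The rule gave 537 core B bins among 2642 autosomal bins used. The highest 20% gave 537 core A bins, and 1568 bins lay in the middle.

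The control was a single library of cells with a control hairpin RNA and wild type ARID1A and CAPH2. The ARID1A knockout group (KO) held 2 libraries of cells edited by CRISPR, with CAPH2 wild type. The CAPH2 knockdown group (KD) held 2 libraries with ARID1A wild type. ARID1A is a subunit of the SWI/SNF chromatin remodelling complex, and CAPH2 (NCAPH2) a subunit of condensin II, a complex that shapes chromosomes and keeps their territories apart. The control shares the hairpin method with the KD and not with the KO, so method and genotype cannot be told apart in comparisons with the KO. The labels do not say whether replicates came from separate cultures or clones. The p-values therefore measure only a spread between libraries that may be technical, and the single control has no spread of its own.

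The B compartment is the part of the genome that is mostly gene-poor, late replicating and weakly transcribed. It tends to lie at the nuclear lamina and around nucleoli, and its stretches contact each other more than they contact the active A compartment, both along a chromosome and between chromosomes. Which bins count as B is relative to the rest of their chromosome, so on a gene-rich chromosome even the most B-like bins may be active by the standards of the genome.

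Core B bins came in 254 runs of adjoining bins, of which 111 were a single bin. The median run was 2 Mb, and 20.9% of core B bins lay in runs of 5 Mb or more. The longest was chr5:97000001-106000000 with 9 Mb, followed by 3 of 8 Mb at chr1:69000001-77000000, chr3:82000001-90000000 and chr10:52000001-60000000. Core B bins were rare near chromosome ends, with 10 of 537 (1.86%) within 5 Mb of one against 8.52% of all bins and 15.5% of core A bins. Near the largest unmeasured stretch of each chromosome, which on most holds the centromere, they were about as frequent as other bins, with 13.4% within 10 Mb against 14.0% of all bins.

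The eigenvector, in units of its SD per chromosome, chose the members and is given as a description. Its lowest values were at chr17:69000001-70000000 (-1.60), chr17:68000001-69000000 (-1.59) and chr5:109000001-110000000 (-1.58), and the median core B bin was at -1.15. The last bin inside the threshold had a median of -1.05 over the 22 chromosomes and the first bin outside one of -1.04. On chromosome 3 these were -0.98 on both sides (chr3:120000001-121000000 inside, chr3:97000001-98000000 outside), while on chromosome 17 they were -1.35 and -1.14. Bins on both sides of the threshold were thus nearly alike on most chromosomes.

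Contacts between bins numbered 26.6 M (megacontacts) in the control, 16.4 M and 15.7 M in the KO and 31.0 M and 46.6 M in the KD, counted after undoing the balancing of the deposited matrices. The KO libraries were the shallowest. A pair of core B bins on different chromosomes held on average 3.75 contacts in the control, 1.50 and 1.52 in the KO and 5.16 and 7.61 in the KD. Values of single bin pairs were therefore not used, and all values are means over many bin pairs.

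Membership held up to different degrees when the eigenvector was taken anew in each library. Of the 537 bins, 374 (69.6%) and 430 (80.1%) were again in the lowest 20% in KO replicates 1 and 2, and 470 (87.5%) and 473 (88.1%) in the KD. In all 4 libraries 285 bins (53.1%) kept their place. KO replicate 2 and both KD libraries left all 537 bins below 0, and KO replicate 1 left 507. Chromosome 5 of KO replicate 1 stood apart, since its first eigenvector had a Pearson correlation of 0.033 with the control's and placed 12 core B bins in the highest 20%. Without chromosome 5 that library kept 372 of 501 bins.

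Only 11 core B bins left the lowest 20% in all 4 other libraries. The largest mean move was at chr5:107000001-108000000, from -1.20 in the control to 1.27 and -0.79 in the KO and -0.82 and -0.84 in the KD. The next were chr5:94000001-95000000 (mean move 0.72) and chr9:73000001-74000000 (0.44). All 3 were moved most by KO replicate 1, and in the remaining libraries all of them stayed below -0.74. On chromosome 5 the sign of that library's eigenvector rests on its correlation of 0.033 with the control's. Its values there are therefore not comparable with the control's, and neither are the mean moves of the chromosome 5 bins. Core B bins lost in both KO libraries numbered 47, of which 24 were kept in both KD libraries, and those lost in both KD libraries numbered 39, of which 13 were kept in both KO libraries. The lowest 20% is a fixed share of each chromosome, so losses are matched by gains. From outside core B, 46 bins entered it in both KO libraries and 48 in both KD libraries. The 47 include bins of chromosome 5, and many bins lie close to the threshold. These counts carry no test, because the control's own values chose the bins.

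Trans contacts entered the choice of bins through the sign alone, so they show whether the bins behave as a B compartment beyond their own chromosome. Relative to the mean trans signal of a library, core B bins contacted each other at 1.12 in the control, 1.01 and 1.03 in the KO and 1.19 and 1.20 in the KD. The KO libraries lay below the control, the KD libraries above it, and the groups did not overlap. Core B with core A bins stood at 0.651 in the control, 0.725 and 0.689 in the KO and 0.631 and 0.626 in the KD, in the opposite order. Core A bins contacted each other far more, at 1.80 in the control, 1.76 and 1.77 in the KO and 1.81 and 1.80 in the KD. B-B contacts thus exceeded B-A contacts in every library, as the label requires, but their excess over the mean trans signal was small beside that of A-A contacts. The sign of the eigenvector favours this, since it gives core A bins the higher ratio of trans to cis contacts. In the control the median log2 ratio was -0.039 in core A bins and -0.93 in core B bins.

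**Figure D1:**
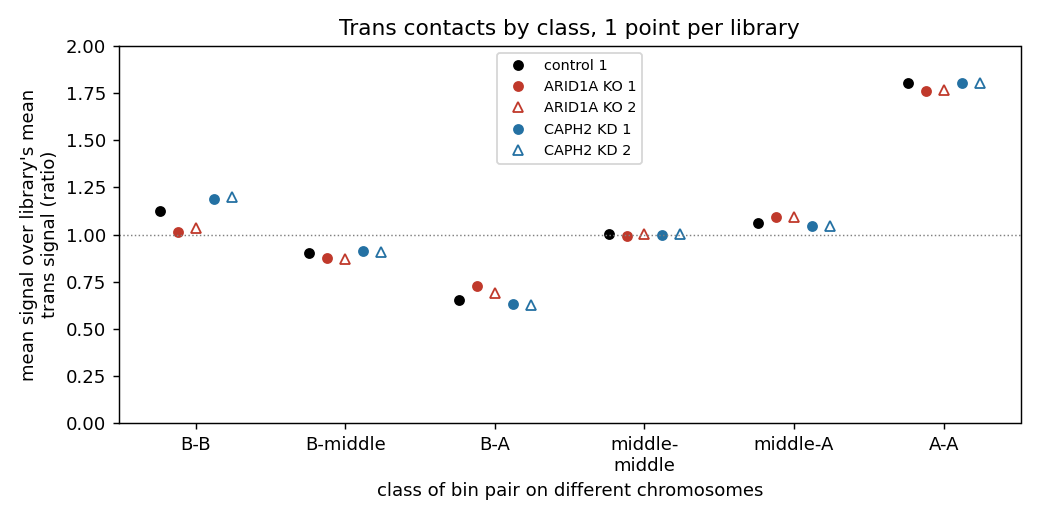
Mean signal of 6 classes of bin pairs on different chromosomes, as a ratio to the mean trans signal of the library (vertical axis, dotted line at 1), with 1 point per library. B-B contacts run from 1.01 and 1.03 in the KO over 1.12 in the control to 1.19 and 1.20 in the KD, and B-A contacts run the other way.

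As a share of all signal of core B bins, trans contacts with other core B bins were 6.66% in the control, 5.76% and 5.86% in the KO and 7.50% and 7.51% in the KD. The KO mean was 5.81% ± 0.0697 (SD, n = 2) and the KD mean 7.50% ± 0.00284 (SD, n = 2). Trans contacts with core A bins took 3.86% in the control, 4.13% and 3.91% in the KO and 3.97% and 3.92% in the KD, which is a narrow range. Signal within the same bin took 26.4% in the control, 29.0% and 32.0% in the KO and 26.3% and 26.8% in the KD, so it was higher than the control in both KO libraries and near it in the KD. Core A bins showed the same order in their trans contacts with each other, at 10.7% of their signal in the control, 10.05% and 10.07% in the KO and 11.4% and 11.3% in the KD. Their signal within the same bin was 33.8% in the control, 34.8% and 38.5% in the KO and 33.9% and 34.5% in the KD, so neither shift was limited to core B bins. These shares were not tested, and an exact two-sided permutation test of 2 against 2 libraries cannot go below 0.33.

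The next comparison asked on which pairs of chromosomes the trans B-B contacts differed. For each of 231 pairs of autosomes, the B-B value is the log2 of the mean signal between core B bins over the mean signal of all bin pairs of those 2 chromosomes. The median over the 231 pairs was 0.16 in the control, 0.016 and 0.063 in the KO and 0.26 and 0.27 in the KD. B-B values were above 0 in all 5 libraries for 110 pairs and below 0 in all 5 for 44. The values were tested with limma together with the 5 other classes of bin pairs (1386 features, Benjamini-Hochberg adjusted p over all of them).

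Against the control, no B-B pair passed in the ARID1A KO (0 of 1386 features, 0% called), and 116 of 231 had an unadjusted p under 0.05. The lowest limma adjusted p was 0.0514. Both KO libraries were below the control in 192 of 231 B-B pairs, where 41.8% of all features were, and the median log2 fold change was -0.13 against -0.0057 over all features. The B-A class had a median of 0.12, with both KO libraries above the control in 202 pairs, and the A-A class one of -0.046. The test of the difference between the B-B and the A-A change of a chromosome pair called 2 pairs, both with the lower value for B-B (limma), 31 had an unadjusted p under 0.05, and the median difference was -0.077.

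The 5 pairs with the smallest p were led by chromosomes 19 and 21. Their B-B value was 0.33 in the control, -0.31 and -0.36 in the KO and 0.52 and 0.48 in the KD, below 0 in the KO libraries alone. Against the control this is -0.66 on the log2 scale (SE 0.032, limma adjusted p = 0.0514). The B-B log2 fold changes of chromosomes 4 and 19 (-0.27), 6 and 19 (-0.30), 9 and 12 (-0.25) and 1 and 20 (-0.25) followed, each with a limma adjusted p of 0.0755. None of these passes the threshold, and 3 of the 5 hold chromosome 19.

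In the CAPH2 KD no B-B pair passed against the control either (0% called), 79 had an unadjusted p under 0.05, and the lowest limma adjusted p was 0.130. Both KD libraries were above the control in 178 of 231 pairs, where 41.1% of all features were, with a median log2 fold change of 0.090 against -0.0013 over all features. The smallest p was that of chromosomes 12 and 13, at -0.63 in the control, -0.43 and -0.45 in the KO and -0.27 and -0.26 in the KD, which gives a log2 difference from the control of 0.36 (SE 0.022, limma adjusted p = 0.130). All 4 KO and KD libraries lay above the control here. This pair holds 5 very strong bin pairs of the kind described below, and without the bin pairs near them it stood at -0.33 in the control, -0.071 and -0.14 in the KO and -0.016 and -0.018 in the KD. The next 4 pairs had a limma adjusted p of 0.236 each, with log2 fold changes of 0.28 for chromosomes 3 and 19, 0.19 for 4 and 15, 0.18 for 8 and 14 and -0.21 for 1 and 20. In the pair of chromosomes 1 and 20 the KO and the KD were both lower than the control, which is the single library both comparisons share. In the test of the difference between B-B and A-A changes no pair was called (limma), 31 had an unadjusted p under 0.05, and the median difference was 0.088.

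The KO and KD libraries, which share no sample, differed most. B-B contacts were lower in the ARID1A KO than in the CAPH2 KD in 146 of 231 chromosome pairs (limma adjusted p under 0.05) and higher in 0, and 182 had an unadjusted p under 0.05. Over all classes 30.8% of features were called, and 16.7% were called lower. The log2 fold changes of the 146 pairs ran from -0.12 to -0.84, and the median over all 231 was -0.22 against -0.00074 over all features. Both KO libraries lay below both KD libraries in 208 pairs, where 37.6% of all features did. Both KO libraries lay below the control and both KD libraries above it in 145 pairs, where 22.2% of all features did.

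The other classes are given for contrast. All classes of a chromosome pair are taken over the same mean, so lower values in some classes go with higher values in others. The B-A change is therefore not independent of the B-B change. Of the 231 B-A values 119 were higher in the KO than in the KD and 0 lower (median 0.16), while of the A-A values 9 were higher and 40 lower (median -0.044). The test of the difference between the B-B and the A-A change called 91 pairs, in 89 of which the B-B change was the lower (limma, median difference -0.19). Leaving out either KD library ended all 146 calls, at 0 and 0 pairs called, because the spread then came from the KO libraries, whose SD within the group was 0.066 against 0.024 in the KD. With a KO library left out the spread came from the KD libraries, and calls rose over all features. The median log2 fold change over B-B pairs was then -0.19 without KO replicate 1 and -0.24 without KO replicate 2.

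**Figure D2:**
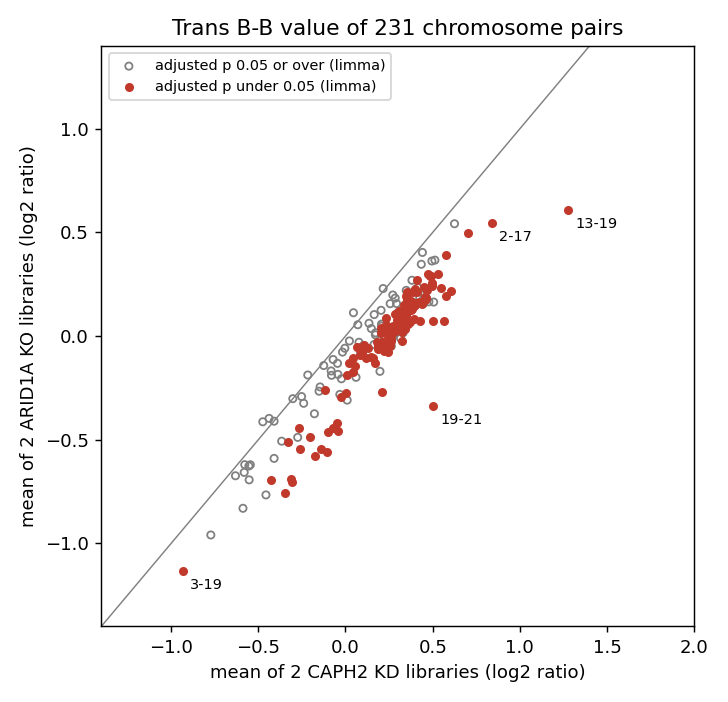
B-B value of each of 231 pairs of autosomes, as the mean of the 2 ARID1A KO libraries (vertical) against the mean of the 2 CAPH2 KD libraries (horizontal), both log2 ratios, with the line of equal values. Filled points are the 146 pairs called by limma, all of them below the line, and the pair of chromosomes 19 and 21 lies farthest from it.

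All 5 pairs with the smallest p between KO and KD held chromosome 19. For chromosomes 19 and 21 the KO and KD differed by -0.84 on the log2 scale (SE 0.027, limma adjusted p = 0.00915), over 77 bin pairs. Chromosomes 4 and 19 stood at -0.29 in the control, -0.55 and -0.57 in the KO and -0.11 and -0.095 in the KD, which gives a log2 difference between KO and KD of -0.46 (SE 0.019, limma adjusted p = 0.0122). The B-B log2 fold changes were -0.41 for chromosomes 16 and 19, -0.38 for 2 and 19 and -0.40 for 6 and 19, each with a limma adjusted p of 0.0122. Core B bins of chromosome 19 thus had weaker relative contacts with those of other chromosomes in the KO than in the KD, in 16 of the 21 pairs by limma's test, a count that other chromosomes reached too (18 of 21 for chromosome 9). With core B defined as the lowest 10%, the count over all pairs was 39 of 231, and with the lowest 30% it was 177. Over all classes 82 and 453 of 1386 features were called in these fits.

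Levels differed more between chromosome pairs than between groups. The highest B-B values over the KO and KD libraries were those of chromosomes 13 and 19, at 1.17 in the control, 0.51 and 0.70 in the KO and 1.27 and 1.28 in the KD. Chromosomes 2 and 17 (mean 0.69) and 10 and 12 (mean 0.60) followed. The lowest were chromosomes 3 and 19, at -1.21 in the control, -1.16 and -1.11 in the KO and -0.92 and -0.94 in the KD, then 17 and 19 (mean -0.87) and 1 and 19 (mean -0.71). Chromosome 19 thus held both the highest value and the 3 lowest.

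Some pairs hold very strong contacts at single places, as joined pieces of different chromosomes give. Bin pairs over 50 times the mean trans signal in the control were found in 33 of the 231 chromosome pairs. Of these 81 bin pairs 2 had core B bins on both sides. The others enter a B-B value only through the mean of the chromosome pair. Without the bin pairs within 20 Mb of these on both sides, the pair of chromosomes 3 and 19 stood at -0.70 in the control, -0.78 and -0.71 in the KO and -0.48 and -0.51 in the KD. It was then no longer among the 3 lowest, which were 17 and 19, 1 and 19, and 1 and 22 (mean -0.65). Other pairs moved too, such as 12 and 17, from 0.47 to -0.032 in the control, and 1 and 17, from 0.65 to 0.18. The pair of 13 and 19 hardly moved, at 1.17 in the control, 0.51 and 0.74 in the KO and 1.31 and 1.34 in the KD. The pair of 19 and 21 holds no such place. Over all B-B bin pairs the level without them was 1.13 in the control, 1.01 and 1.03 in the KO and 1.19 and 1.20 in the KD, which is close to the level with them.

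By chromosome, the mean of the 21 B-B pairs of each was lower than the control in both KO libraries on all 22 chromosomes and higher in both KD libraries on 20. The highest were chromosomes 7, 18 and 11. Chromosome 7 stood at 0.31 in the control, 0.15 and 0.16 in the KO and 0.37 and 0.38 in the KD. Chromosome 18, at 0.18 in the control, 0.054 and 0.12 in the KO and 0.34 and 0.36 in the KD, had the largest difference between KD and control (0.17), and chromosome 11 had a mean of 0.19 over the KO and KD libraries.

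The lowest were chromosomes 19, 22 and 20, all small, and 19 and 22 known to be gene-rich. Chromosome 19 stood at -0.32 in the control, -0.54 and -0.54 in the KO and -0.17 and -0.17 in the KD. Chromosome 22 was at -0.15, -0.35 and -0.32 in the KO and -0.17 and -0.17 in the KD, so its KD libraries did not exceed the control. Chromosome 20 was at -0.021 in the control, -0.14 and -0.053 in the KO and -0.035 and -0.036 in the KD, with none of its 21 pairs called between KO and KD. The core B bins of these 3 chromosomes contacted core B bins elsewhere less than the mean of their chromosome pairs. That value also falls where core B bins have little trans signal of any kind. The preference for core B partners, measured per bin below, is relative to a bin's own trans signal. Its mean in the control was -0.040 on chromosome 19, -0.059 on 22 and 0.056 on 20. Chromosomes 19 and 22 thus went against the label by both measures there, and chromosome 20 by the first alone. Single bins differed, since 3 of 11, 4 of 7 and 5 of 12 core B bins of chromosomes 19, 22 and 20 had a preference under 0 in all 5 libraries. Without chromosomes 17, 19, 20 and 22, a choice made after seeing these values, 124 of 153 pairs were called lower in the KO than in the KD. Of all 918 features 193 were called lower.

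**Figure D3:**
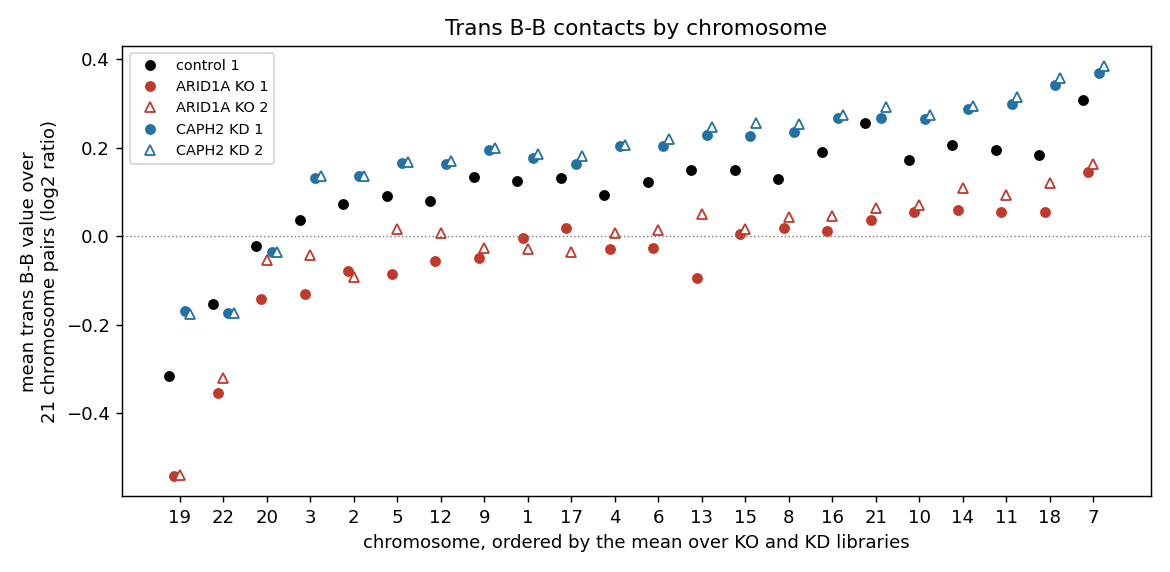
Mean trans B-B value of each autosome over its 21 chromosome pairs (log2 ratio, vertical), with 1 point per library and chromosomes ordered by the mean over the KO and KD libraries. The KO points lie below the control on all 22 chromosomes, and chromosomes 19, 22 and 20 lie below 0 in every library.

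For single bins, the preference is the log2 of a bin's mean trans signal with core B bins over its mean trans signal with all autosomal bins of other chromosomes. The median preference of core B bins was 0.34 in the control, 0.23 and 0.29 in the KO and 0.42 and 0.43 in the KD. It was above 0 in the control for 514 of 537 bins and in all 5 libraries for 462, against 1 of 537 core A bins. The order of the libraries was that of the chromosome pairs. How low a core B bin lay on the control's eigenvector was hardly correlated with its preference (r = 0.052 across 537 bins of a library that share its depth). That r pools chromosomes, whose thresholds differ. Relative to the mean trans signal, B-B contacts were stronger among the lower-lying core B bins in all 5 libraries. These stood at 1.15 in the control, 1.02 and 1.06 in the KO and 1.23 and 1.24 in the KD. The higher-lying core B bins stood at 1.10 in the control, 1.00 and 1.02 in the KO and 1.16 and 1.16 in the KD. The difference was not tested.

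The highest preferences lay on chromosomes 2 and 3. The bin chr2:115000001-116000000 had 0.67 in the control, 0.63 and 0.62 in the KO and 0.70 and 0.73 in the KD, and its neighbour chr2:116000001-117000000 had 0.72 in the control, 0.56 and 0.56 in the KO and 0.69 and 0.73 in the KD. Preferences below 0 in all 5 libraries occurred in 16 core B bins, 15 of them on chromosomes 17, 19, 20 and 22, which hold 46 core B bins. The lowest by the mean over the KO and KD libraries was chr19:56000001-57000000 with -0.31 in the control, -0.49 and -0.56 in the KO and -0.17 and -0.12 in the KD, and chr19:52000001-53000000 had the lowest value in the control, -0.40. These bins were picked by their values and carry no test.

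No core B bin passed limma's test against the control, either in the KO (0% of 2642 bins called, 99 core B bins with an unadjusted p under 0.05) or in the KD (0% called, 19 such bins). Both KO libraries were below the control in 377 core B bins, where 41.6% of all bins were, and both KD libraries were above it in 444, where 49.1% of all bins were. The smallest p in the KO were those of chr22:48000001-49000000 (log2 fold change -0.34), chr19:22000001-23000000 (-0.28) and chr17:13000001-14000000 (-0.29), each with a limma adjusted p of 0.301. In the KD they were those of chr19:20000001-21000000 (0.25), chr19:22000001-23000000 (0.21) and chr8:60000001-61000000 (0.17), each with a limma adjusted p of 0.908.

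Between KO and KD, 98 of 537 core B bins had a lower preference in the KO and 0 a higher one (limma adjusted p under 0.05), where 14.1% of all bins were called, 8.1% lower and 5.98% higher. The median log2 fold change was -0.16 against -0.052 over all bins. Core A bins were called more often, at 22.2% against 18.2% of core B bins, with 117 higher in the KO and 2 lower. Both KO libraries lay below both KD libraries in 472 core B bins, where 45.7% of all bins did. In 303 of them both KO libraries were below the control and both KD libraries above it, where 26.1% of all bins were. The 98 calls stood close to the threshold, with limma adjusted p from 0.0467 to 0.0496. None was left without chromosomes 17, 19, 20 and 22 or with core B as the lowest 10%, and the calls depended on having both KD libraries. With 1 library left out the median log2 fold change of core B bins ran from -0.13 (without KO replicate 1) to -0.18 (without KO replicate 2).

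**Figure D4:**
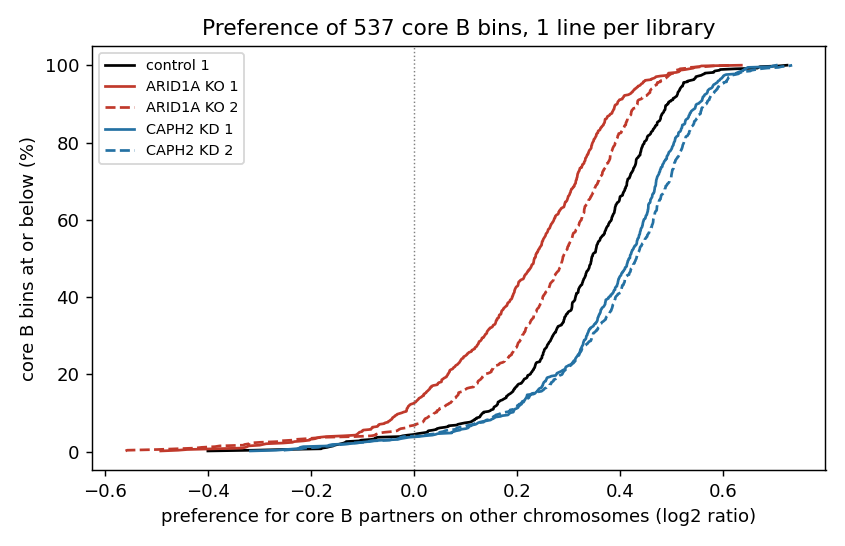
Percent of the 537 core B bins (vertical) at or below each preference for core B partners on other chromosomes (log2 ratio, horizontal), with 1 line per library. At the median the KO lines lie to the left of the control and the KD lines to its right, from 0.23 in KO replicate 1 to 0.43 in KD replicate 2. The highest value is 0.72 in the control and 0.70 in KD replicate 1, so these lines cross.

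Chromosome 19 had 10 of its 11 core B bins among the 98. Chromosome 2 had 14 of 48 and chromosome 9 had 7 of 22. The 3 smallest p were those of the adjoining bins chr19:20000001-21000000, chr19:21000001-22000000 and chr19:22000001-23000000, in the part of the short arm known for tandem arrays of KRAB zinc finger genes. The bin from 22000001 had a preference of -0.10 in the control, -0.39 and -0.39 in the KO and 0.090 and 0.12 in the KD. Its log2 fold change between KO and KD was -0.49 (SE 0.046, limma adjusted p = 0.0467), and those of its neighbours were -0.44 for the bin from 20000001 and -0.49 for the bin from 21000001. The bin from 20000001 had -0.072 in the control, -0.29 and -0.24 in the KO and 0.20 and 0.15 in the KD, so both it and the bin from 22000001 avoided core B partners in the KO and preferred them in the KD. Gene content was not analysed here, for want of an annotation of this build.

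Within chromosomes, B-B contacts were taken as observed over expected at the same distance. They were 1.62 in the control, 1.51 and 1.58 in the KO and 1.65 and 1.68 in the KD, and B-A contacts were 0.432 in the control, 0.503 and 0.457 in the KO and 0.416 and 0.405 in the KD. The cis signal of the control chose the bins, which raises B-B and lowers B-A in the control, so differences from the control are a description. Over all B-B bin pairs the KD libraries exceeded the control although the choice favoured the control. By chromosome this was mixed, with both KD libraries above the control on 12 of 22 chromosomes and both below it on 6. Of all features of chromosome and class 38.6% were above and 45.5% below. The median log2 difference of B-B values from the control was 0.024, and -0.0041 with the expectation over all autosomes.

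The KO libraries differed from the KD most at long range. At 100 Mb and over, B-B contacts were 1.61 in the control, 1.48 and 1.50 in the KO and 1.64 and 1.68 in the KD. At 50 to 100 Mb they were 1.53 in the control, 1.45 and 1.46 in the KO and 1.58 and 1.61 in the KD. From 5 to 50 Mb both KO libraries also lay below the control and both KD libraries above it, but the KO replicates stood farther apart, for example at 20 to 50 Mb with 1.64 and 1.75, where the control had 1.77 and the KD libraries 1.80 and 1.83. Between neighbouring bins (1 to 2 Mb) the order was turned, with 1.17 in the control, 1.19 and 1.24 in the KO and 1.16 and 1.17 in the KD. Bins of the same run contacted each other at 1.42 in the control, 1.36 and 1.46 in the KO and 1.42 and 1.44 in the KD, which overlap, while bins of different runs stood at 1.64 in the control, 1.52 and 1.59 in the KO and 1.67 and 1.70 in the KD.

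**Figure D5:**
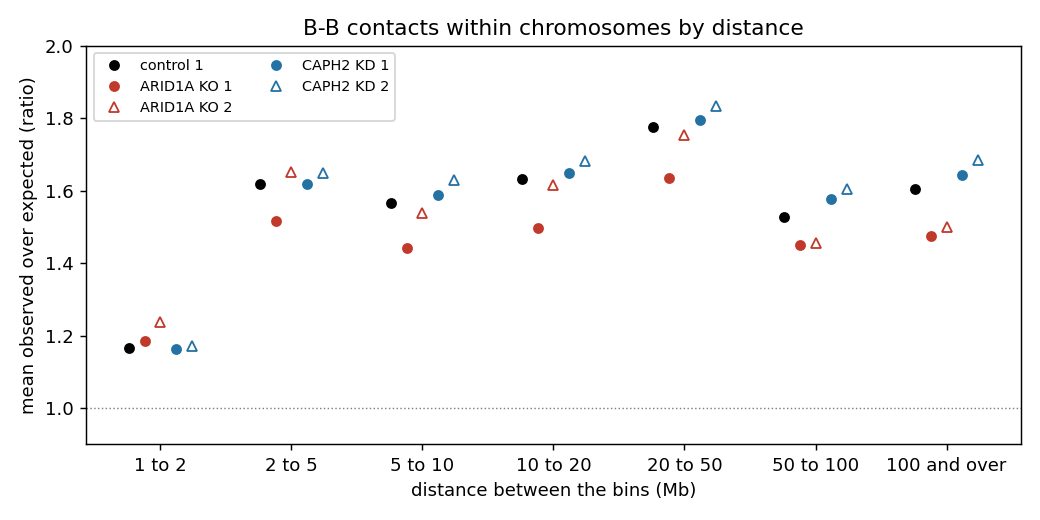
Mean observed over expected signal of B-B bin pairs within chromosomes (vertical, ratio, axis from 0.9) by the distance between the bins (horizontal, Mb), with 1 point per library. At 5 Mb and over both KO libraries lie below the control and both KD libraries above it, while at 1 to 2 Mb the KO libraries are the highest.

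By chromosome, the log2 of cis B-B observed over expected was above 0 on all 22 chromosomes in all 5 libraries. Chromosomes 19 (mean over KO and KD libraries 1.10), 16 (0.96) and 9 (0.83) had the highest values, and chromosomes 20 (0.40), 4 (0.50) and 11 (0.53) the lowest. Chromosome 19 thus had the strongest B-B contacts within itself and the weakest with other chromosomes. Between KO and KD, 2 of 22 chromosomes had lower B-B values in the KO (limma adjusted p under 0.05) and 0 higher ones, where 10.6% of the 132 features of chromosome and class were called, 2.27% lower and 8.33% higher. With an unadjusted p under 0.05 there were 10. The median log2 fold change was -0.096 against -0.013 over all features, and 13 of 22 chromosomes had both KO libraries below both KD libraries, where 36.4% of all features did.

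The 2 called were chromosomes 21 and 19. Chromosome 21 stood at 0.83 in the control, 0.53 and 0.55 in the KO and 0.76 and 0.77 in the KD, which gives a log2 difference between KO and KD of -0.22 (SE 0.018, limma adjusted p = 0.0209) over 21 bin pairs. Chromosome 19 stood at 1.24 in the control, 1.03 and 0.96 in the KO and 1.18 and 1.22 in the KD, a difference of -0.20 (SE 0.032, limma adjusted p = 0.0371). Chromosome 2 came next with -0.21 and a limma adjusted p of 0.0667. The call of chromosome 19 turned to 0.03 with core B bins taken from KO replicate 2, and both calls were lost without either KD library. B-A contacts share their expectation with B-B contacts, so the changes of these classes are not independent. They were higher in the KO than in the KD on 10 of 22 chromosomes and lower on 0 (median log2 fold change 0.21). Both KO libraries exceeded both KD libraries in B-A contacts on all 22. The difference between B-B and A-A changes passed on no chromosome in cis (limma, 2 with an unadjusted p under 0.05).

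The ratio of trans to cis contacts of core B bins had a median log2 of -0.93 in the control, -0.99 and -0.94 in the KO and -0.74 and -0.75 in the KD. Over all bins it was -0.56 in the control, -0.60 and -0.47 in the KO and -0.40 and -0.39 in the KD. Core B bins were below the other bins in every library, which the sign of the eigenvector favours in the control, and the KD libraries were above the control in both sets. Core B bins near the largest unmeasured stretch on both sides of a trans pair contacted each other at 1.29 in the control, 1.13 and 1.29 in the KO and 1.54 and 1.54 in the KD. All bins at such places stood at 1.25 in the control, 1.19 and 1.34 in the KO and 1.43 and 1.42 in the KD, so the higher KD values there were not limited to core B bins. With neither bin near such a stretch, B-B contacts were 1.15 in the control, 1.03 and 1.06 in the KO and 1.22 and 1.23 in the KD.

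Balancing sets the total signal of every bin equal, and the yield of core B bins before balancing moved with the groups. Relative to the mean bin, core B bins held 1.06 times the contacts in the control, 0.842 and 0.840 in the KO and 1.10 and 1.08 in the KD, and core A bins 0.893 in the control, 1.12 and 1.11 in the KO and 0.855 and 0.874 in the KD. In contacts before balancing, trans B-B contacts were 1.16 times the mean trans pair in the control, 0.730 and 0.738 in the KO and 1.31 and 1.27 in the KD. The order of the groups was the same there and the differences were larger. By limma, 230 of 231 B-B pairs were called lower in the KO than in the KD. Of all 1386 features 956 were called, 468 of them lower. Against the control 227 B-B pairs were called lower in the KO (limma), where 882 of 1386 features were called, 454 of them lower. Values before balancing carry the yield of both bins, so these counts are no separate evidence on B-B contacts. The part of yield in the balanced values was not tested.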

How the data were processed

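In situ Hi-C matrices of 5 libraries were used, with groups and replicate numbers from the labels. Per the submitters' processing notes, the aligner was Bowtie2 and the build hg19. The sources used here do not name versions, read filters or the balancing program. The authors deposited 1 matrix of contact signal per library in bins of 1 Mb, and the row sums of all autosomal bins used lay within 0.1% of the library's median, so the signal is balanced. Its total differs between libraries, and only ratios within a library were compared. Of 2893 autosomal bins 2667 had signal in all libraries, and 25 with under 0.25 of the control's median contacts were left out.

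Contacts were recovered by dividing each value by 2 bin factors. Factors estimated from low trans values gave contacts whole within 0.05 for 98.2% to 99.2% of nonzero values. A search corrected factors too small by a small whole divisor, and one that it missed would go unseen. These contacts serve for depth and as an alternative.

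The expectation in cis was the mean signal per distance and chromosome, with the same bin left out, and the trans over cis ratio used a pseudocount of 0.5 on the scale of the signal. Tests used lmFit and eBayes of limma 3.58.1 in R 4.3.3, on log2 values, with all 5 libraries in 1 fit, 2 residual degrees of freedom and Benjamini-Hochberg adjusted p over all features of a family at 0.05. The control's spread is taken from the KO and KD libraries, which differ in spread. Other steps used Python 3.11.15, numpy 2.4.6 and pandas 2.3.3. The fits were tested on simulated data.

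The members and all rules were chosen with earlier results of these data known. The named items are, per comparison, the 5 chromosome pairs and 3 bins with the smallest p (in cis 3 chromosomes), and the 3 highest and lowest pairs and chromosomes. Bins were named by the lowest eigenvector, the threshold, the longest runs and the largest move among those lost in all libraries. The highest and lowest preferences, joined pairs and the split by chromosomes 17, 19, 20 and 22 were added after values were seen. Alternatives were other members, expectations, filters, distances, a variance trend, the replicate number as a block and leaving out each library. Gene lists by bin were not analysed here.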

Additional observations from a re-analysis of the deposited data

How the results depend on the processing

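Depth limits the values of single bin pairs, read yield before balancing moved with the groups, copy number was not measured, and 1 control library limits every comparison with it. The median log2 fold change kept its direction under every alternative run, from -0.81 to -0.18 for trans B-B in KO against KD, -0.66 to -0.11 in KO against control and 0.072 to 0.15 in KD against control. The counts of calls depended on the spread, and the cause of the other shifts was not tested.

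Trans B-B pairs called in KO against control were 0. There was 1 without chromosome 18, without the filter on bins or with the library mean as expectation. Recovered contacts gave 227, where 882 of 1386 features were called. With 1 library left out the median log2 fold change over B-B pairs ran from -0.12 to -0.15. Leaving out either KO library also brought calls, so the 0 calls depended on having both. Their number is not given, as a KO group of 1 library has no spread of its own. In KD against control 0 pairs were called under every alternative. In KO against KD the 146 became 39 (lowest 10%), 230 (recovered contacts), 0 (KD libraries averaged to 1 sample) and 0 to 202 with 1 library left out.

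The 2 chromosomes called in cis became 0 at 20 Mb and over, with KD libraries averaged, with members from KO replicate 2, without the filter or with the expectation over all autosomes, 1 with members from KD replicate 2 or without distances under 3 Mb, 4 with a variance trend, 22 in recovered contacts and 0 to 14 with 1 library left out. Chromosome 19 turned from -0.20 to 0.029 with members from KO replicate 2.

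Core B bins called in KO against control were 0, and 478 in recovered contacts and 0 to 285 with 1 library left out. In KD against control they were 0, and 0 to 32 with 1 library left out. In KO against KD the 98 became 0 (lowest 10%, members from KO replicate 2, KD libraries averaged, or chromosomes 17, 19, 20 and 22 left out), 247 (lowest 30%), 372 (expectation from core A partners), 532 (recovered contacts), 203 (variance trend) and 0 to 453 with 1 library left out.

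The replicate numbers gave no sign of pairing in trans (correlation of same-numbered deviations 0.090) or in bins (0.020), but 0.43 in cis. With the replicate block the KO against KD calls were 108 pairs in trans, 5 chromosomes in cis and 81 bins. Over all features these fits called 188 of 1386, 25 of 132 and 308 of 2642.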
